A study of Mus musculus with 24 samples.

Results

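Mouse chromosome 7 carries 8 clusters of zinc finger genes, and the genes described here are those whose symbol is Zfp followed by a number. The deposited count table lists 95 such rows on the chromosome. The 83 rows with at least 50 counts summed over all 24 libraries were kept, out of 53465 rows in the table, and were ordered by start position. A run of at least 3 kept genes with starts less than 1000000 bases apart was taken as a cluster, which placed 73 genes in 8 clusters and 10 outside them. The genes were chosen by their total count, so the levels given for them over all libraries describe the chosen genes and carry no test. Just inside the limit were Zfp82 with 154 counts, Zfp14 with 178, Zfp583 with 192 and Zfp383 with 202. Just outside were Zfp536 with 18 counts, Zfp30 with 17, Zfp93 with 13 and Zfp941 with 8. All 83 kept genes also passed the filter on low counts that preceded the tests.

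The libraries come from RN2 cells, a cultured mouse acute myeloid leukaemia line with the genotype Mll-Af9; NrasG12D, which all groups share. The cells had been transduced with retroviral vectors that express a short hairpin RNA once doxycycline is given. Hairpins shOgdh346 (clones 1 and 5) and shOgdh2081 (clones 3 and 5) target Ogdh, a subunit of the 2-oxoglutarate dehydrogenase complex, and shRen713 (clones 2 and 7) is the control hairpin. Each hairpin was sampled at day 4 of doxycycline and at day 0, before it was given, with 2 libraries for each clone and day. This gives 6 groups of 4 libraries, and each hairpin rests on 2 clones of 1 line. The libraries held 7209186 to 20705468 counts, of which the 83 genes took 0.119% to 0.175%. Ogdh itself lay at 32.3 to 70.9 CPM (counts for each 1000000 counts of a library) in the 8 Ogdh hairpin libraries at day 4 and at 206 to 253 CPM in the 4 control libraries. At day 0 it lay at 126 to 235 CPM in the Ogdh hairpin libraries and 202 to 250 CPM in the control libraries.

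Most Zfp genes encode proteins with tandem C2H2 fingers, each of which holds a zinc ion and reads a short stretch of DNA. Many of these proteins also carry a KRAB box, which recruits the corepressor Trim28 and, through it, histone H3 lysine 9 methylation, and many bind transposable elements. Such genes arose by repeated local duplication and therefore lie in clusters, of which mouse chromosome 7 holds several. Zfp36 shares only the name: it encodes tristetraprolin, a CCCH protein that binds AU-rich elements in messenger RNA and speeds its decay.

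The encoded proteins were read from the GENCODE M21 transcripts for 80 of the 83 genes. They held 0 to 33 C2H2 fingers with a median of 12. Zfp36 held none and Zfp619 the most. A KRAB A box, defined as at least 9 of 12 fixed positions matched, was found in 47 proteins and not found in 33. A box on another transcript, or one that departs from the pattern, would not have been counted.

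The levels of these genes are compared per kilobase of transcript. The mean over 24 libraries had a median of 2.2 CPM per kilobase over the 83 genes, 3.34 over 229 Zfp genes of other chromosomes and 5.63 over all 14249 genes tested. Genes with a KRAB A box had a median of 1.57 CPM per kilobase and those without one a median of 4.24. The 5 highest were Zfp146 with 27.2, Zfp110 with 19.6, Zfp710 with 13.4, Zfp592 with 12.2 and Zfp143 with 11.9 CPM per kilobase. Zfp146 encodes a protein made almost wholly of fingers, Zfp110 a factor that interacts with the neurotrophin receptor p75, and Zfp143 an activator that binds at promoters. The highest by CPM in each cluster were Zfp865, Zfp787, Zfp110, Zfp180, Zfp36, Zfp146, Zfp715 and Zfp646, in the order of the clusters.

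The first question was what happened to these genes when Ogdh was lowered. The change from day 0 to day 4 was compared between the Ogdh hairpins and the control, and the net change is the first minus the second, on the log2 scale, averaged over both Ogdh hairpins. A gene is said to have risen or fallen where the quasi-likelihood test of edgeR gave an adjusted p under 0.05, by the Benjamini-Hochberg method over all 14249 genes. On this measure 6 of the 83 genes rose (7.23%) and 14 fell (16.9%), a total of 24.1%, against 37.7% of all genes tested, of which 17.9% rose and 19.8% fell. The Zfp genes of other chromosomes stood at 18 risen and 45 fallen of 229 (27.5%). The other genes that lie inside the 8 clusters stood at 13 risen and 11 fallen of 83 (28.9%). The median net change was -0.10 for the 83 genes, -0.17 for Zfp genes elsewhere and -0.00 for all genes. In bulk RNA a lower level in fewer cells and less RNA in each cell cannot be told apart. The 20 calls became 13 without the replicate 1 library of control clone 2 at day 0, 4 without control clone 2 and 3 without control clone 7. DESeq2 made 8 calls, 3 risen and 5 fallen, and over all 14249 genes it called 2128 risen and 2151 fallen. A fit without the clone block made 5 calls and a fit of 24 single libraries with a replicate block 32. Their shares over all genes are not given here.

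**Figure D1:**
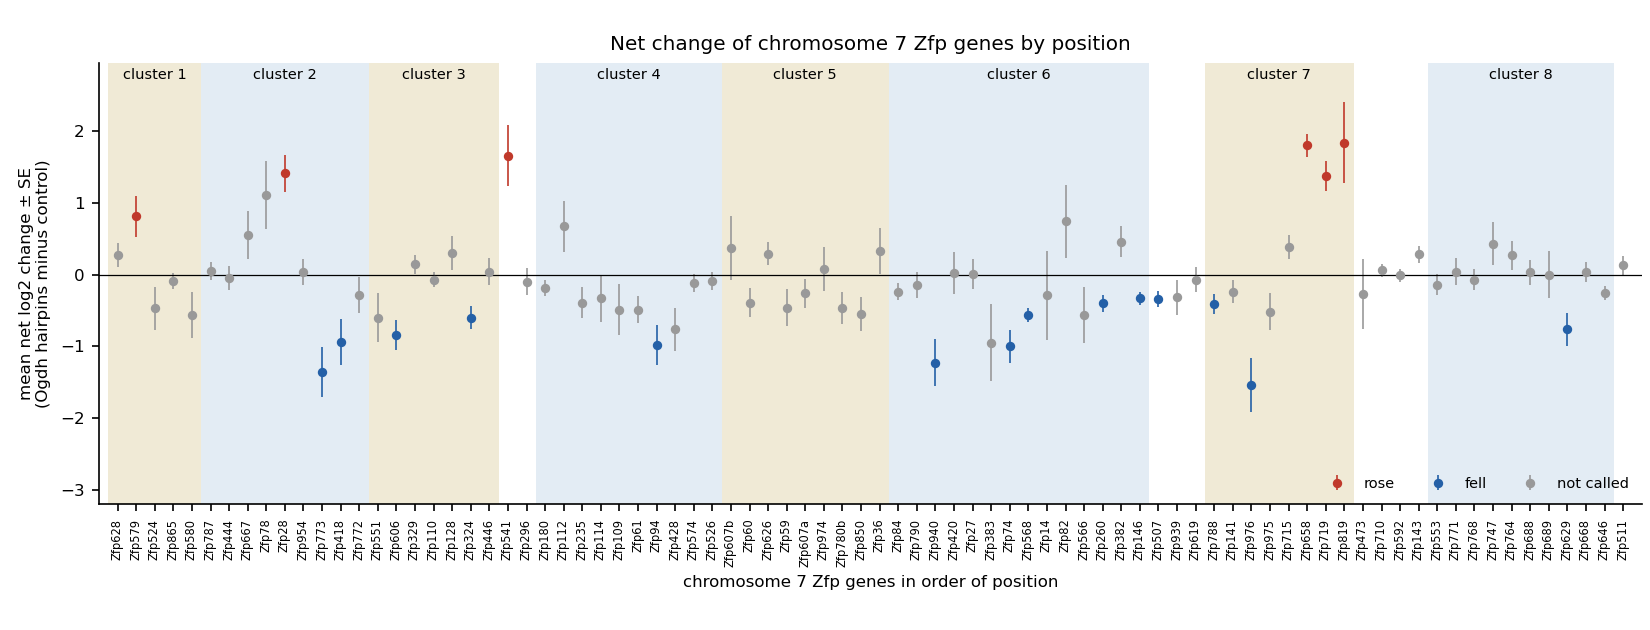
Mean net log2 change (Ogdh hairpins minus control) with its SE for the chromosome 7 Zfp genes in order of position; bands mark the 8 clusters, red points rose, blue points fell and grey points were not called. Zfp583 is not drawn because it had 0 counts in all shOgdh346 libraries. The last 3 genes of cluster 7 stand together between 1.37 and 1.84.

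Of 65 pairs of neighbouring genes within a cluster, 33 (50.8%) had net changes of the same sign, against 56.3% of 14221 neighbouring pairs over all chromosomes. The median difference between neighbours was 0.51 log2 within the clusters and 0.64 over all chromosomes. Cluster 5, of 9 genes with Zfp60, Zfp626 and Zfp36 among them, held no gene that rose or fell in net change, with 1 gene at an unadjusted p under 0.05. Cluster 6, of 14 genes, held 5 that fell and none that rose. Cluster 7, of 8 genes, held 3 that rose and 2 that fell.

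The 3 risers of cluster 7 are Zfp658, Zfp719 and Zfp819, the last 3 kept genes of the cluster, which lie side by side on the plus strand within 56 kilobases. In the GRCm38 coordinates of the deposited table, Zfp658 (ENSMUSG00000056592) spans chr7:43562256-43575461, Zfp719 (ENSMUSG00000030469) chr7:43579610-43593235 and Zfp819 (ENSMUSG00000055102) chr7:43607169-43618285. All 3 proteins matched the KRAB A box, with 21 fingers in Zfp658, 13 in Zfp719 and 9 in Zfp819. Zfp819 protein was reported to bind Trim28 in mouse embryonic stem cells. None of the 3 genes shared a 76-base stretch, the read length, with the transcripts of another gene. Their promoters are shown because the 3 genes lie side by side and all rose in mean net change. They are the RefSeq windows (GRCm38.p6, plus strand) from 250 bases before to 50 bases after the annotated start, at chr7:43562120-43562419, chr7:43579336-43579635 and chr7:43606919-43607218, with CG pairs, the sites of DNA methylation, in capitals:
Zfp658: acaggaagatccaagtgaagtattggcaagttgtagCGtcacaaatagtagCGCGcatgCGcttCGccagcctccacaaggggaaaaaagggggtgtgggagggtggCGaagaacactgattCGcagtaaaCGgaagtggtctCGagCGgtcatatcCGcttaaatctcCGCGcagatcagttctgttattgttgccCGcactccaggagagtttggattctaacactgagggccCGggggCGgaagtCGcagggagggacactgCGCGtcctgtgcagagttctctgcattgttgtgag
Zfp719: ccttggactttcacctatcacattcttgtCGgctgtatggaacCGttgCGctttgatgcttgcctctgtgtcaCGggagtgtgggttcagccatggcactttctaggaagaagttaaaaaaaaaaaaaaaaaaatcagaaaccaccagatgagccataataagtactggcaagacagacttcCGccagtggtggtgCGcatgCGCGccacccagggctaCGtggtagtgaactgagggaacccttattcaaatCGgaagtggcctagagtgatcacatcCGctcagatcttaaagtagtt
Zfp819: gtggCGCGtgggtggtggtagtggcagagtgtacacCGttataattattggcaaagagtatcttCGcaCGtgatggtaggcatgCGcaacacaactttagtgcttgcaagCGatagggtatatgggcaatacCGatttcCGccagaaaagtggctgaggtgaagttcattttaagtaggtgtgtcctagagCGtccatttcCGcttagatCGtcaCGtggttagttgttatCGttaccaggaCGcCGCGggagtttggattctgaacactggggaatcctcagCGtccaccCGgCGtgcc

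The windows of Zfp658, Zfp719 and Zfp819 hold 19, 11 and 20 CG pairs. The median is 15.5 over the 76 kept genes with a RefSeq window and 7.0 over all 32851 windows of the table. The longest run of bases shared on either strand was 13 between Zfp658 and Zfp819, 12 between Zfp658 and Zfp719 and 9 between Zfp719 and Zfp819, against a median of 9.0 over 75 neighbouring pairs. Only unbroken runs were scored, so likeness over longer stretches with mismatches was not measured. The 6-base E-box CACGTG, searched on both strands, was found in the window of Zfp819, in 7.89% of the 76 windows and in 7.15% of all windows. The 5-base core TGACG of CREB and ATF sites, searched on both strands, was found in the windows of Zfp658 and Zfp819, in 26.3% of the 76 windows and in 20.8% of all windows. The 2 motifs can share up to 2 bases, as they do in the window of Zfp819, and a match is a description of the letters only.

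Zfp658 had 50.5 and 47.6 CPM in clone 1 and 30.4 and 29.4 CPM in clone 5 of shOgdh346 at day 4. With shOgdh2081 it had 31.5 and 28.7 CPM in clone 3 and 28 and 27.5 CPM in clone 5, and with the control 6.94 and 6.95 CPM in clone 2 and 10.4 and 10 CPM in clone 7. All 8 Ogdh hairpin libraries thus lay above all 4 control libraries at day 4. At day 0 it ran from 2.7 to 7.56 CPM in the Ogdh hairpin libraries, with a median of 5.79, and from 2.78 to 6.37 CPM in the control libraries, so that the groups overlapped. The net change was 1.80 ± 0.16 (SE, 4 Ogdh clones and 2 control clones, edgeR adjusted p = 0.000129), and each of the 4 Ogdh clones rose more than each of the 2 control clones. It was 1.99 ± 0.19 with shOgdh346 (adjusted p = 0.000174) and 1.61 ± 0.19 with shOgdh2081 (adjusted p = 0.000782).

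Zfp719 showed the same order at a higher level, with 65, 59.9, 43.1 and 40.4 CPM with shOgdh346 and 56.6, 49, 50.5 and 47.6 CPM with shOgdh2081 at day 4, against 20.5, 18.1, 22.2 and 20.2 CPM with the control. At day 0 it ran from 7.03 to 14.1 CPM in the Ogdh hairpin libraries and from 7.64 to 15.1 CPM in the control libraries. Every day 4 library, the control included, lay above every day 0 library, which held for 6.02% of the 83 genes and 1.78% of all genes tested. The net change was 1.37 ± 0.21 (adjusted p = 0.00112), and Zfp658 and Zfp719 were the only genes of the 83 whose net rise held in the main fit and in all 41 alternatives run.

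Zfp819 was far less abundant and varied more between clones. At day 4 it had 2.69 and 3.55 CPM in clone 1 of shOgdh346, 0.799 and 0.438 CPM in clone 5 of shOgdh346, and 4.98, 4.32, 6.51 and 5.52 CPM with shOgdh2081, against 0.526, 0.705, 0.636 and 1.27 CPM with the control. Clone 5 of shOgdh346 thus overlapped the control, while the other 3 Ogdh clones lay above it. The net change was 1.84 ± 0.56 (adjusted p = 0.0303). The call failed in 10 of 41 alternatives, among them without control clone 7 (1.04, adjusted p = 0.532), without control clone 2 (2.18, adjusted p = 0.0514), with the replicate 1 libraries alone at day 0 (1.49, adjusted p = 0.104) and in DESeq2 (adjusted p = 0.0991).

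Zfp715, the most abundant gene of cluster 7, lies 266 kilobases before Zfp658 by their lowest coordinates, on the minus strand. At day 4 it averaged 60.3 ± 10.9 CPM over 4 Ogdh clones and 39.3 ± 3.47 CPM over 2 control clones (SD), and at day 0 it averaged 33.8 ± 3.48 and 28.9 ± 0.197 CPM. It was higher with the Ogdh hairpins at day 4 (0.62 ± 0.16, adjusted p = 0.0143), and its net change was 0.38 ± 0.17 (adjusted p = 0.102), which is not called.

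**Figure D2:**
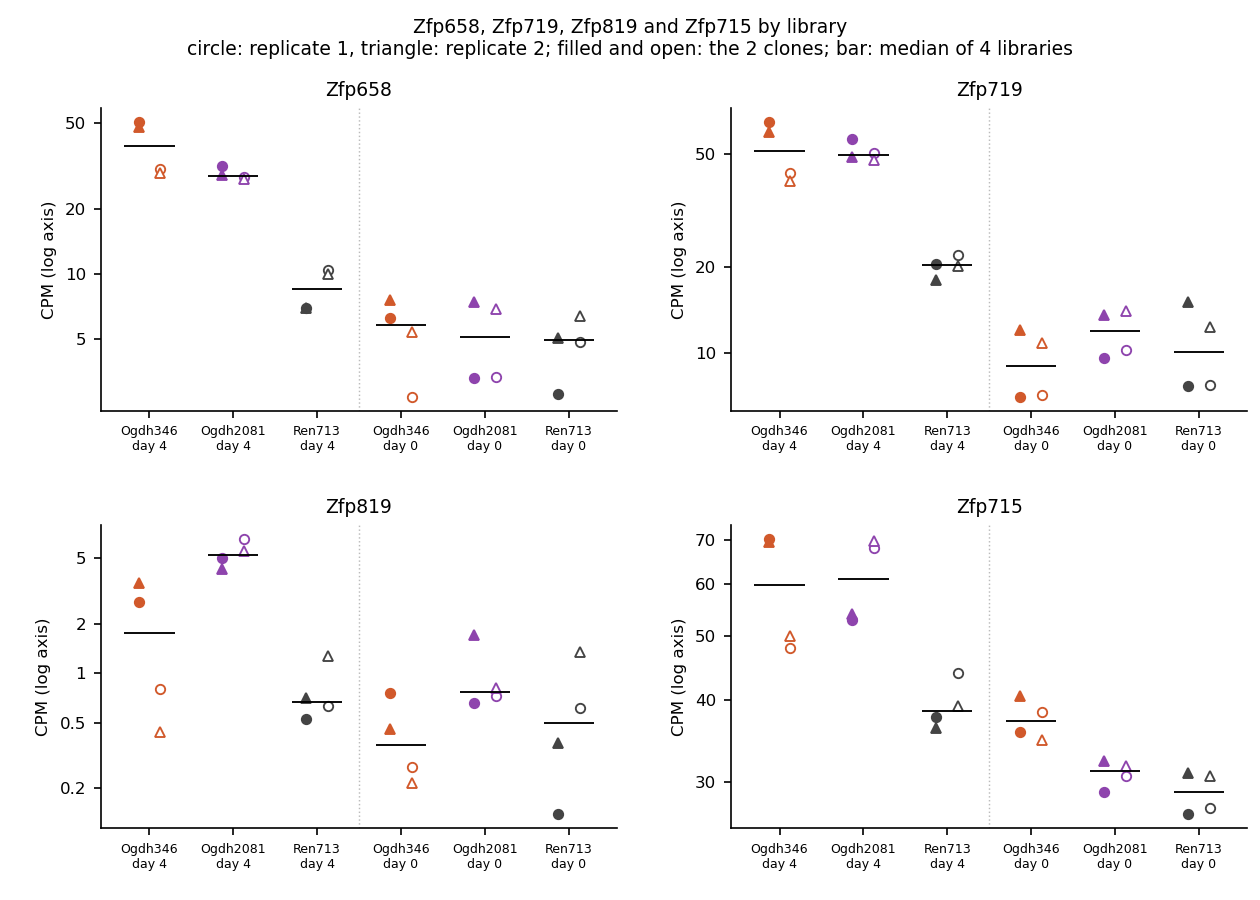
CPM by library, on log axes, of Zfp658, Zfp719, Zfp819 and Zfp715 for the 3 hairpins at day 4 and day 0; the 2 clones of a hairpin are drawn as filled and open symbols, the 2 libraries of a clone as a circle and a triangle, and bars are medians of 4 libraries. For Zfp658 all Ogdh hairpin libraries at day 4 sit at 27.5 CPM or above and all control libraries at 10.4 CPM or below.

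Around Zfp658, Zfp719 and Zfp819, which were singled out because they rose, 16 other genes were tested within 300 kilobases on each side. Of these 5 rose, 1 fell and 10 were not called in net change, against 17.9% risen and 19.8% fallen of all genes, and no test of the window was made. Cd33, a sialic acid receptor of myeloid cells and the nearest gene tested before Zfp658, averaged 1644 ± 394 CPM over the Ogdh clones at day 4 and 418 ± 64.3 CPM over the control clones, with 349 ± 59.9 and 324 ± 17.8 CPM at day 0. Its net change of 1.86 ± 0.15 (adjusted p = 7.31e-05) was close in size to that of Zfp658. On the far side, Ceacam18, of the carcinoembryonic antigen family, rose by 3.09 ± 0.79 (adjusted p = 0.0137) at group means of at most 1.27 CPM. Siglece, another sialic acid receptor, rose by 2.26 ± 0.27 (adjusted p = 0.000391), with 55.1 ± 29.4 CPM over the Ogdh clones and 8.53 ± 7.27 CPM over the control clones at day 4. Siglecf rose by 0.87 ± 0.20 (adjusted p = 0.00808). Iglon5 was called at under 1 CPM with the control at 0 at day 4, so no fold is given. Ctu1, a tRNA thiolation enzyme 110 kilobases from Zfp658, was at -0.19 ± 0.18 (adjusted p = 0.437), and Etfb, of the electron transfer flavoprotein, fell by 0.70 ± 0.16 (adjusted p = 0.00771). These neighbours were named after their values were seen.

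**Figure D3:**
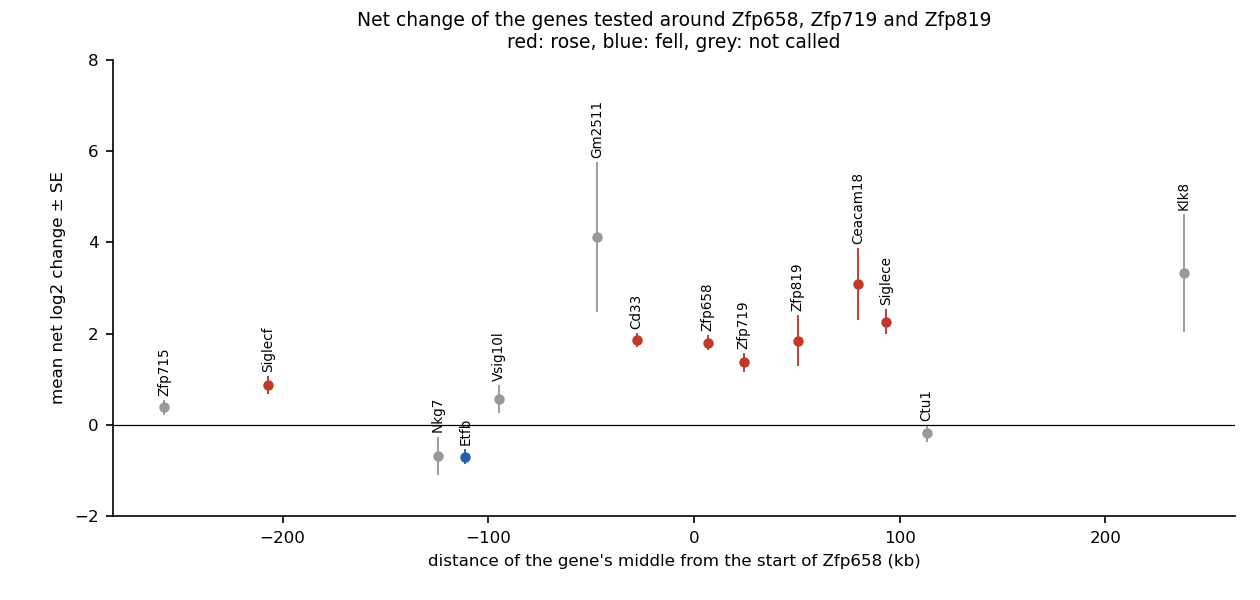
Mean net log2 change with its SE of the 14 genes within 300 kilobases of Zfp658 to Zfp819 that reached 1 CPM in a group mean, against the distance in kilobases of each gene's middle from the start of Zfp658; red points rose, the blue point fell and grey points were not called. Cd33, Zfp658, Zfp719, Zfp819, Ceacam18 and Siglece form a run of 6 neighbours in the plot that all rose. The Zfp genes of this run set the window because they rose, and Ceacam18 had group means of at most 1.27 CPM.

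The other 3 genes that rose lie apart. Zfp28, a KRAB gene of cluster 2, had 8.46, 7.52, 3.59 and 4.16 CPM with shOgdh346 and 3.86, 4.32, 5.58 and 4.11 CPM with shOgdh2081 at day 4, against 2.1, 1.81, 2.44 and 1.96 CPM with the control. The groups did not overlap at day 4. Its net change was 1.41 ± 0.26 (adjusted p = 0.0032), and the change from day 0 to day 4, as log2 of CPM plus 0.5, was 1.27 and 1.25 in the clones of shOgdh346, 0.09 in both clones of shOgdh2081 and -0.47 and -0.58 in the control clones. Without control clone 7 the net change was 1.34 (adjusted p = 0.0657). Zfp541, a factor of male meiosis in mice that lies outside the clusters, had 2.18 to 3.11 CPM in the Ogdh hairpin libraries at day 4, with a median of 2.5, against 0.424 to 1.31 CPM in the control libraries. The groups did not overlap, and the net change was 1.66 ± 0.43 (adjusted p = 0.0153). The call was lost without control clone 2 (adjusted p = 0.0596), without control clone 7 (adjusted p = 0.169), with the replicate 2 libraries alone at day 0 (adjusted p = 0.0826) and in DESeq2 (adjusted p = 0.072). Zfp579 of cluster 1 rose by 0.81 ± 0.28 (adjusted p = 0.0447), and this call failed in 18 of 41 alternatives. At day 4 it averaged 5.31 ± 2.49 CPM over the Ogdh clones and 5.39 ± 3.56 CPM over the control clones (SD). At day 0 it averaged 3.23 ± 0.682 and 5.95 ± 3.73 CPM, so the means lay further apart at day 0 than at day 4. This gap came from control clone 2, with 9.58 and 7.69 CPM at day 0. Control clone 7 had 3.37 and 3.19 CPM, within the 2.38 to 4.01 CPM of the Ogdh hairpin libraries.

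The 14 genes that fell show different courses. Zfp568, Zfp74 and Zfp940, all KRAB genes of cluster 6, fell from day 0 to day 4 with both Ogdh hairpins. Zfp568, which in mouse embryos silences a placental promoter of Igf2, was the most abundant. At day 4 it had 62.2, 59.9, 49.2 and 51.1 CPM with shOgdh346 and 63.4, 56.8, 58.4 and 63.6 CPM with shOgdh2081, against 77.9, 78.7, 95.2 and 82 CPM with the control. The groups did not overlap at day 4, and at day 0 they did, at 78.6 to 120 CPM with the Ogdh hairpins and 83.4 to 94.7 CPM with the control. The net change was -0.56 ± 0.10 (adjusted p = 0.00256), and without control clone 7 it was -0.48 (adjusted p = 0.0667). Zfp74 had 5.05 to 8.11 CPM in the Ogdh hairpin libraries at day 4, with a median of 7.55, and 11.9 to 15.7 CPM in the control libraries, without overlap, and its net change fell by 1.00 ± 0.23 on the log2 scale (adjusted p = 0.00916). Zfp940 ran from 0.256 to 2.13 CPM in the Ogdh hairpin libraries at day 4, with a median of 1.13, and from 1.96 to 3.78 CPM in the control libraries, so that the groups overlapped slightly. Its net change was -1.23 ± 0.33 (adjusted p = 0.0175), and its change was -2.33 ± 0.30 from day 0 to day 4 with shOgdh346 and -1.21 ± 0.27 with shOgdh2081, against -0.54 ± 0.26 with the control. The net call of Zfp940 was lost without control clone 2 (-0.90, adjusted p = 0.219) and in DESeq2 (adjusted p = 0.0718), and that of Zfp74 without control clone 2 (adjusted p = 0.0557) or control clone 7 (adjusted p = 0.0996).

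Zfp773, Zfp94, Zfp324 and Zfp260 took another course: each rose from day 0 to day 4 with the control and rose less, or was not called, with the Ogdh hairpins. Zfp94 averaged 4.35 ± 0.667 CPM over the Ogdh clones and 5.97 ± 0.778 CPM over the control clones at day 4, against 2.32 ± 0.406 and 1.59 ± 0.0947 CPM at day 0. Its change from day 0 to day 4 was 0.87 ± 0.21 with shOgdh346, 0.95 ± 0.22 with shOgdh2081 and 1.89 ± 0.23 with the control, so a net change of -0.98 ± 0.28 (adjusted p = 0.0208) is here a smaller rise. The net change of Zfp773 was -1.36 ± 0.35 (adjusted p = 0.015), that of Zfp324 -0.60 ± 0.16 (adjusted p = 0.0182) and that of Zfp260 -0.40 ± 0.12 (adjusted p = 0.024). All 4 net calls were lost without control clone 2, without control clone 7 and in DESeq2, with adjusted p between 0.0516 and 0.245. With the replicate 2 libraries alone at day 0 the control rise was called for Zfp260 (0.73, adjusted p = 0.0219) and not for Zfp94 (1.45, adjusted p = 0.0541), Zfp324 (0.40, adjusted p = 0.211) or Zfp773 (0.82, adjusted p = 0.243). The remaining falls were Zfp976 at -1.54, Zfp418 at -0.94, Zfp606 at -0.84, Zfp629 at -0.76, Zfp788 at -0.41, Zfp507 at -0.34 and Zfp146 at -0.33. Of 41 alternatives the call failed in 23 for Zfp418, 19 for Zfp788, 9 for Zfp629, 4 for Zfp146 and 3 each for Zfp976 and Zfp606. Zfp507 shares 25.5% of its 76-base stretches with other transcripts, so its counts are uncertain.

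Each Ogdh hairpin alone gave fewer calls. With shOgdh346 4 genes rose and 12 fell (19.3%, against 34.8% of all genes), and with shOgdh2081 4 rose and 7 fell (13.3%, against 27.8%). Both hairpins called Zfp658 and Zfp719 as risen and Zfp324, Zfp568, Zfp74 and Zfp976 as fallen, in comparisons that share the control clones. The same overlap over all genes is not given here. Without control clone 2 the counts were 6 with shOgdh346 and 1 with shOgdh2081, and without control clone 7 they were 6 and 2. Leaving out clone 1 of shOgdh346 left 9 calls for that hairpin, and leaving out clone 3 or clone 5 of shOgdh2081 left 7 or 6 for the other. In the fit of single libraries with the replicate block the counts were 28 and 26. The largest called fall with shOgdh346 was that of Zfp383, at -2.27 ± 0.59 (adjusted p = 0.0169), a gene of 0.126 to 2.12 CPM. This call was lost in 5 of 41 alternatives, among them without clone 1 of shOgdh346 (-1.88, adjusted p = 0.0857), without control clone 2 (-1.80, adjusted p = 0.121) and in DESeq2 (adjusted p = 0.0947). The difference between the 2 hairpins was called for 0 of the 83 genes in edgeR and in DESeq2, with 10 and 3 at an unadjusted p under 0.05. Over all genes it was called for 15 (0.105%), 0.0561% higher and 0.0491% lower with shOgdh346. With the replicate block it was called for 9 of the 83 genes. Zfp28 came nearest, at 1.35 in shOgdh346 minus shOgdh2081 (adjusted p = 0.146).

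At day 4 alone, 6 of the 83 genes were higher and 12 lower with the Ogdh hairpins than with the control (21.7%, against 38.6% of all genes, with 17.5% higher and 21.2% lower). The count was 10 without clone 1 of shOgdh346, 6 without control clone 2, 5 without control clone 7 and 35 with the replicate block. Among the 12 lower genes is Zfp583, which had 0 counts with shOgdh346 at both days. With shOgdh2081 it averaged 2.21 CPM at day 4, against 1.51 CPM with the control. In 8 genes all Ogdh hairpin libraries lay above all control libraries at day 4, and in 7 all lay below, which is 9.64% and 8.43% of the 83 against 16.8% and 20.1% of all genes. Zfp143 was among the higher ones, at 0.33 ± 0.09 (adjusted p = 0.023), with 42.6 to 56.4 CPM in the Ogdh hairpin libraries and 34.2 to 40.8 CPM in the control libraries. Before doxycycline, at day 0, 0 of the 83 genes were called in edgeR or in DESeq2, with 4 and 3 at an unadjusted p under 0.05, and 0 of all genes were called in edgeR. None of the 83 genes had all Ogdh hairpin libraries above or all below the control libraries at day 0, against 0.239% and 0.323% of all genes.

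The second question was what 4 days of doxycycline and culture did with the control hairpin, where Ogdh is not targeted. From day 0 to day 4 18 of the 83 genes rose (21.7%) and 3 fell (3.61%), a total of 25.3%, against 4.44% and 2.44% of all genes tested, a total of 6.88%. The Zfp genes of other chromosomes stood at 41 of 229 risen (17.9%) and 3 fallen. The other genes inside the clusters stood at 3 risen and 1 fallen of 83. Of the 18 risers 13 matched the KRAB A box, which is 27.7% of 47 such genes, and 5 of the 33 genes without one rose. The count rests on both control clones: without clone 2 1 gene was called, Zfp60, and without clone 7 none. Without the replicate 1 library at day 0 of clone 2 it was 8 risen and 1 fallen, and without that of clone 7 it was 8 risen and 0 fallen.

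Cluster 5 held 5 of the 18 risers, Zfp60, Zfp626, Zfp59, Zfp607a and Zfp780b, all with a KRAB A box. Zfp60 had 18.5, 20, 19.2 and 19.5 CPM with the control at day 4, against 4.31 and 10.2 CPM in clone 2 and 4.05 and 8.21 CPM in clone 7 at day 0, replicate 1 before replicate 2. Its change was 1.58 ± 0.16 (adjusted p = 0.00273). It also rose by 1.35 ± 0.16 with shOgdh346 and by 1.01 ± 0.16 with shOgdh2081. Zfp780b rose by 1.59 ± 0.18 with the control (adjusted p = 0.0037), by 1.15 ± 0.18 with shOgdh346 and by 1.09 ± 0.18 with shOgdh2081. Every day 4 library of Zfp60 and of Zfp780b lay above every day 0 library. Zfp780b shares 12.1% and Zfp59 38.6% of its 76-base stretches with other transcripts, mostly neighbours in the cluster, so reads could have been split between them.

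In all, 12 genes rose from day 0 to day 4 with all 3 hairpins: Zfp260, Zfp329, Zfp553, Zfp60, Zfp607a, Zfp626, Zfp658, Zfp719, Zfp780b, Zfp787, Zfp790 and Zfp94. Zfp112 and Zfp296, a factor known from pluripotent cells, fell with all 3. Zfp296 had 6.04 to 7.84 CPM with the control at day 4 and 9.86 to 15.5 CPM at day 0, and every day 4 library of the study lay below every day 0 library. With shOgdh346 28 genes rose and 18 fell (55.4%, against 59.5% of all genes, of which 30.2% rose and 29.3% fell). With shOgdh2081 30 rose and 13 fell (51.8%, against 53.4%, of which 27.5% rose and 25.9% fell). Without clone 1 of shOgdh346 21 genes were called for that hairpin, and without clone 5 of shOgdh2081 27 for the other. The median change from day 0 was 0.15 with shOgdh346, 0.18 with shOgdh2081 and 0.27 with the control, where it was 0.01, 0.01 and -0.01 over all genes.

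The day 0 libraries differed by replicate number, and the genes that rose with the control are among those affected. At day 0 Zfp60 ran from 8.21 to 10.3 CPM in the 6 replicate 2 libraries and from 3.97 to 5.19 CPM in the 6 replicate 1 libraries, without overlap. Its 12 libraries at day 4 ran from 12.8 to 20 CPM. In a fit of the 12 day 0 libraries with the clone as a block, chosen after seeing the data, replicate 2 was higher in 28 and lower in 12 of the 77 genes tested, which is 36.4% and 15.6%, against 21.6% and 22% of 11684 genes. In all, 51.9% of the 77 and 43.6% of the 11684 were called. Zfp60 differed by 1.15 ± 0.11 (adjusted p = 4.16e-09) and Zfp626 by 0.84 ± 0.07 (adjusted p = 1.66e-10). The same fit at day 4 found 1 gene higher and 3 lower of 82 (4.88%), against 7.54% of 12248 genes, of which 4.62% were higher and 2.91% lower. Of the 18 genes that rose with the control, 13 were higher in replicate 2 than in replicate 1 at day 0 in all 6 clones. This held for 29 of the 83 genes (34.9%) and for 15.7% of all genes tested. The day 0 libraries of the control enter both the call of a rise and this count, so the 2 are not independent. With the replicate 2 libraries alone at day 0 the control change was called for 4 genes, all risen, namely Zfp260, Zfp329, Zfp60 and Zfp780b, and Zfp60 then stood at 1.07 (adjusted p = 0.0219). With the replicate block the control change was called for 51 genes, 41 of them risen. Zfp626 and the other risers outside the 4 of largest change were named after their values were seen. What the replicate numbers stand for is not given in the sources used here, and their part in the control change was not tested beyond these fits.

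**Figure D4:**
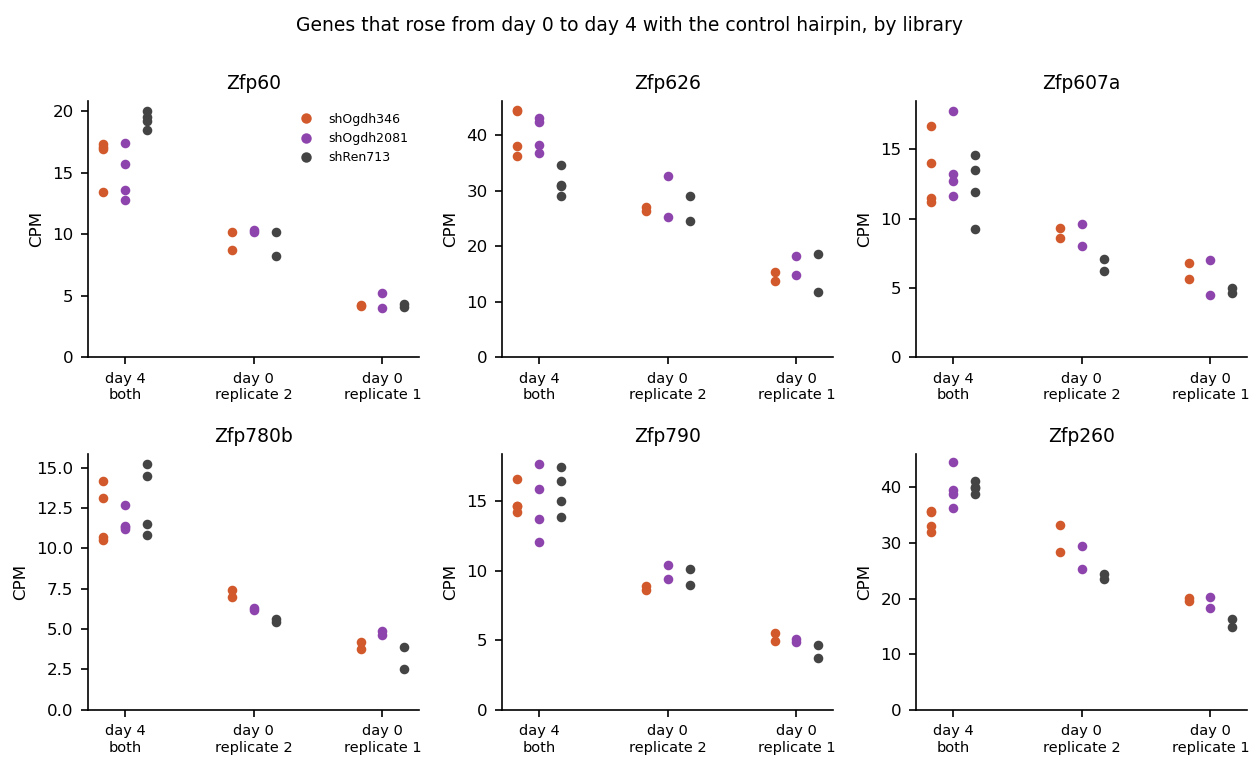
CPM by library of 6 genes that rose from day 0 to day 4 with the control hairpin, split into all day 4 libraries, day 0 replicate 2 libraries and day 0 replicate 1 libraries, coloured by hairpin. Zfp60 runs from 12.8 to 20 CPM at day 4, from 8.21 to 10.3 CPM in replicate 2 at day 0 and from 3.97 to 5.19 CPM in replicate 1 at day 0.

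The values of Zfp658 and Zfp719 touch this pattern too. At day 0 Zfp658 had a median of 6.64 CPM in replicate 2 and 3.32 CPM in replicate 1, and Zfp719 a median of 13 and 7.68 CPM. Both rose with the control, by 0.87 ± 0.14 and 0.95 ± 0.17. With the replicate 2 libraries alone at day 0 these control changes were 0.58 (adjusted p = 0.129) and 0.56 (adjusted p = 0.116). Neither control change passed the test without control clone 2 or without control clone 7, with adjusted p between 0.113 and 0.393. Their net changes, in which the control change is subtracted, were 1.76 (adjusted p = 0.000121) and 1.49 (adjusted p = 0.000202) with the replicate 2 libraries alone at day 0.

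Some genes differed between clones at both days, whatever the doxycycline. Zfp583, a KRAB gene of cluster 2, had 0 counts in all 8 shOgdh346 libraries, which hold 89410374 counts and so allow up to 0.0336 CPM, taking 3 counts over the group as the limit. The other 4 clones held 23 to 75 counts each at day 4, or 1.27 to 2.46 CPM, and 5 to 9 counts each at day 0, or 0.211 to 0.594 CPM. Zfp583 passed the limit of 50 counts through these clones alone, so the gap is a description. With shOgdh2081 it rose from day 0 to day 4 by 2.94 ± 0.39 (adjusted p = 0.000446), with 2.64, 2.16, 2.12 and 1.76 CPM at day 4 and 0.265, 0.457, 0.0811 and 0.359 CPM at day 0. With the control it rose by 1.56 ± 0.38 (adjusted p = 0.0478), a call that failed in 24 of 41 alternatives. Such limits cover counting error only.

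Zfp976 of cluster 7 was low in 3 of the 4 Ogdh clones before doxycycline. It had 9 counts in clone 1 and 13 in clone 5 of shOgdh346 and 8 in clone 3 of shOgdh2081 at day 0, or 0.329, 0.777 and 0.489 CPM, against 116 counts in clone 5 of shOgdh2081 and 52 and 67 in the control clones, or 4.91, 3.43 and 3.16 CPM. At day 4 the same 3 clones had 1, 13 and 10 counts. As log2 of CPM plus 0.5, it changed from day 0 to day 4 by -0.59, -0.30, -0.26 and -0.33 in the Ogdh clones. The control clones changed by 0.69 and 0.83, with 114 and 109 counts at day 4. Its net change of -1.54 ± 0.38 (adjusted p = 0.0124) thus takes in a higher level of the control at day 4. Of the Ogdh clones, 3 rest on few counts. Zfp976 shares 10.2% of its 76-base stretches with other transcripts, Zfp975 first among them.

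Zfp109 of cluster 4 was very low in 1 clone alone. In clone 5 of shOgdh346 it had 1 count at day 4 and 5 counts at day 0, while the other 5 clones ran from 2.22 to 4.72 CPM at day 0. Zfp629 of cluster 8 split the Ogdh clones at day 4, with 11.7, 9.86, 10.8 and 11.6 CPM with shOgdh346 and 11.5 and 13.5 CPM in clone 3 of shOgdh2081, but 30.1 and 31.5 CPM in clone 5 of shOgdh2081, which overlapped the control at 31, 30.9, 27.6 and 26.3 CPM. Its net change of -0.76 ± 0.23 (adjusted p = 0.03) was in the same direction in 6 of 8 clone comparisons. Zfp109 was named after its values were seen. Over the 83 genes, 2 (2.41%) spanned more than 4-fold between the highest and the lowest clone at day 0 after 0.5 CPM was added, Zfp109 and Zfp976, against 4.38% of all genes.

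**Figure D5:**
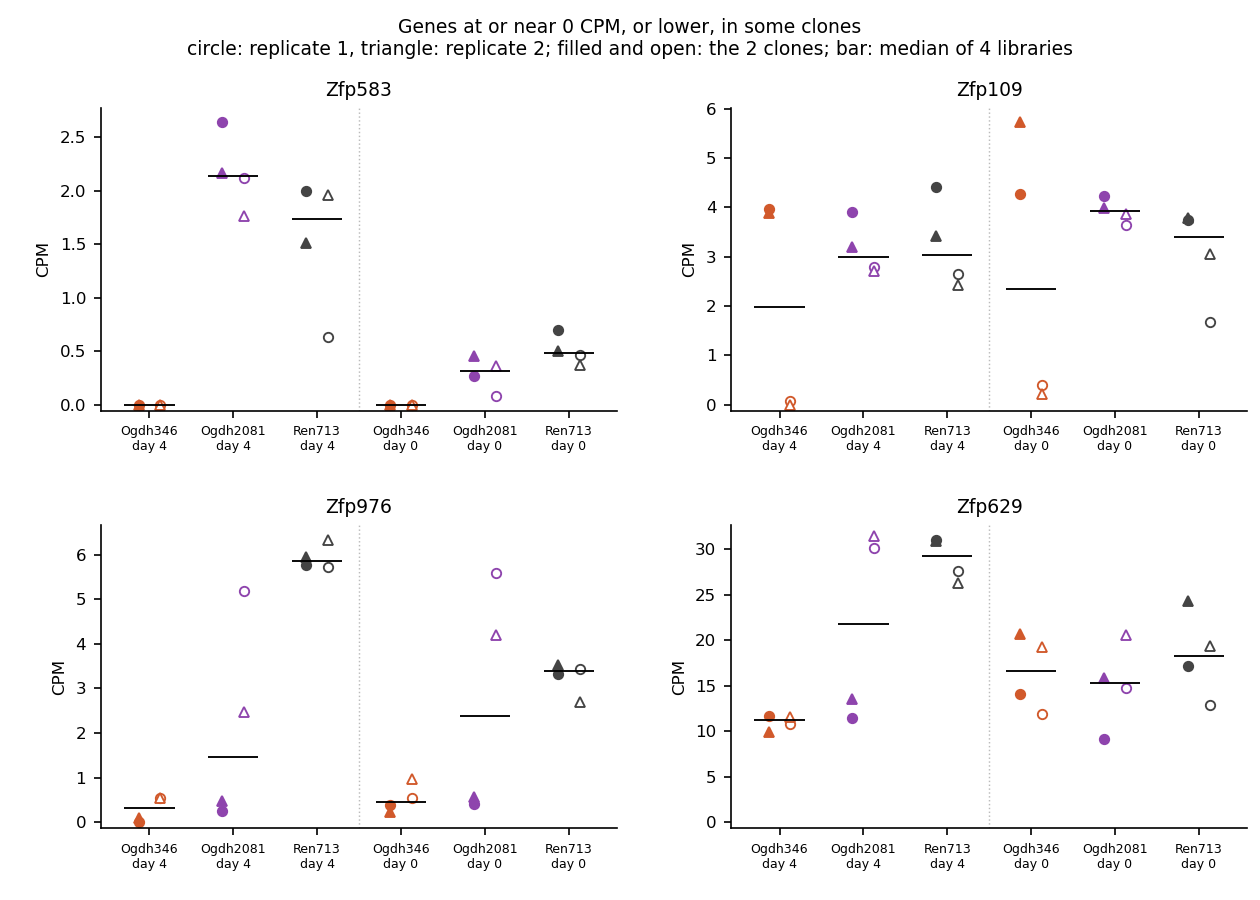
CPM by library of Zfp583, Zfp109, Zfp976 and Zfp629 for the 3 hairpins at day 4 and day 0, with the 2 clones of a hairpin as filled and open symbols and bars at the median of 4 libraries. Zfp583 sits at 0 in all shOgdh346 libraries and Zfp109 at 0.405 CPM or below in 1 clone of shOgdh346.

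Zfp36, the CCCH gene, did not pass the test between hairpins or days with all clones in the fit. At day 4 it had 24, 26.6, 37.3 and 41.2 CPM with shOgdh346 and 41.6, 46.6, 15.8 and 17.7 CPM with shOgdh2081, against 27.2, 26.2, 27.9 and 24.6 CPM with the control. The 2 clones of each Ogdh hairpin lay on different levels. The net change was 0.33 ± 0.32 (adjusted p = 0.463), but without clone 5 of shOgdh2081 it was 0.60 and passed the test (adjusted p = 0.0124). In the list of its CCCH relatives and reported target messages 5 of 9 tested genes rose and 1 fell in net change, with a median of 1.62. Over all genes tested 17.9% rose and 19.8% fell. This list and those below were chosen with earlier results of these data known. Zfp36l1, a relative with the same RNA-binding fold, rose by 2.37 ± 0.33 (adjusted p = 0.000789), and Ier3, a reported target, by 1.75 ± 0.23 (adjusted p = 0.000595). Zfp36l1 averaged 7.67 ± 6.72 CPM over the Ogdh clones and 3.2 ± 2.81 CPM over the control clones at day 4 (SD). At day 0 it averaged 3.05 ± 2.98 and 5.88 ± 4.85 CPM, so its net rise takes in a lower control mean at day 4. Il1b averaged 11.3 ± 9.05 CPM over the Ogdh clones and 0.213 ± 0.0112 CPM over the control clones at day 4 and rose (adjusted p = 0.00342), and Myc fell by 0.52 ± 0.12 (adjusted p = 0.00827). The other 2 genes of the list that rose were Cxcl2 and Zc3h12a.

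KRAB proteins act through Trim28 and H3K9 methylation. In the list of KRAB corepressors and H3K9 methylation genes 11 of 24 fell and 1, Atf7ip, rose in net change, with a median of -0.25. Over all genes tested 19.8% fell and 17.9% rose. Trim28, the corepressor that the KRAB box binds, averaged 298 ± 47.1 CPM over the Ogdh clones and 492 ± 1.87 CPM over the control clones at day 4, with 594 ± 59.6 and 586 ± 1.5 CPM at day 0. Its net change was -0.75 ± 0.11 (adjusted p = 0.00104). Suv39h1, an H3K9 methyltransferase, stood at -0.99 ± 0.11 (adjusted p = 0.000311), Cbx5, which binds methylated H3K9, at -0.75 ± 0.11 (adjusted p = 0.00121), and Hdac2, a histone deacetylase, at -0.48 ± 0.09 (adjusted p = 0.0033). Setdb1, the H3K9 methyltransferase that Trim28 recruits, stood at -0.18 ± 0.09 (adjusted p = 0.152).

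In the list of DNA methylation upkeep 4 of 5 genes fell and none rose, with a median of -1.10. For each list of this paragraph, the shares over all genes tested were 17.9% risen and 19.8% fallen. Hells, a chromatin remodeller, averaged 98.1 ± 15.3 CPM over the Ogdh clones and 224 ± 14.4 CPM over the control clones at day 4, a net change of -1.20 ± 0.09 (adjusted p = 5.38e-05). Uhrf1, which recruits Dnmt1 to replicated DNA, stood at -1.10 ± 0.10 (adjusted p = 0.000149), Dnmt1 at -0.85 ± 0.12 (adjusted p = 0.000729) and Dnmt3b at -1.34 ± 0.20 (adjusted p = 0.00112). Among demethylases and TET enzymes that use 2-oxoglutarate, the substrate of the Ogdh complex, 4 of 14 tested genes rose and 1 fell, with a median of 0.02. Kdm7a rose by 1.23 ± 0.12 (adjusted p = 0.000187), Kdm3a by 0.79 ± 0.12 (adjusted p = 0.00124) and Kdm4c by 0.44 ± 0.11 (adjusted p = 0.0137). All of these encode H3K9 demethylases. Kdm2a rose by 0.28 ± 0.09 (adjusted p = 0.0384), and Kdm2b fell by 0.35 ± 0.09 (adjusted p = 0.0154). In the list of MYC and growth genes 2 of 9 rose and 4 fell, with a median of -0.26. Mxd1, a MAX partner that opposes MYC, rose by 1.79 ± 0.16 (adjusted p = 0.000115), while the nucleolar genes Nop56 and Ncl fell by 1.00 ± 0.11 and 0.94 ± 0.16.

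The myeloid identity of the cells was checked with 10 markers, whose summed level was 4314 to 7390 CPM in the Ogdh hairpin libraries and 6412 to 8055 CPM in the control libraries at day 4. Ptprc, Itgam, Cd33 and Spi1 were higher and Elane and Meis1 lower in all Ogdh hairpin libraries than in all control libraries at day 4. Mpo, Kit, Csf1r and Hoxa9 overlapped between these groups. Over all genes tested 16.8% lay above and 20.1% below in this way. The 4 stromal markers summed to 0.61 to 2.05 CPM with the Ogdh hairpins and 0 to 0.106 CPM with the control at day 4. Most of this was Col1a1, at 0.61 to 1.92 CPM with the Ogdh hairpins. Col1a2 and Col3a1 were at 0 in all day 4 libraries, and Pdgfra reached at most 0.133 CPM. Markers of T cells, erythroid, stromal and endothelial cells summed to at most 2.05 CPM in any library, and Cd3e, Hbb-bs and Col1a2 were at 0 in all. Among B cell markers, Cd79b ran from 0.0865 to 14 CPM with the Ogdh hairpins and from 0.101 to 0.42 CPM with the control at day 4, and already from 0.265 to 16.5 CPM with the Ogdh hairpins and from 0 to 0.49 CPM with the control at day 0, while Ms4a1 stayed under 1 CPM in all libraries. The 4 platelet lineage markers summed to 13.6 to 73.5 CPM with the Ogdh hairpins and 1.7 to 7.46 CPM with the control at day 4. Nearly all of this was Itga2b, while Pf4 and Ppbp stayed under 1 CPM in all libraries. The part of these markers in the net changes of the Zfp genes was not tested.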

How the data were processed

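Polyadenylated RNA was read as single ends of 76 bases, per the labels' protocols. The deposited table holds whole-number counts per gene, made by the authors. The submitters' processing notes name, with no roles, STAR 2.6.1a, featureCounts 1.6.3, FastQC 0.11.5 and Trimmomatic 0.36, and the build mm10 (GRCm38). The labels' protocol names a human build, another counter and an RPKM matrix, which the mouse identifiers and whole numbers contradict. No source used here gives the strand setting or the handling of reads with several matches. The deposited transcript length in bases was used for CPM per kilobase.

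The clone was the replicate: counts of its 2 libraries per day were summed. edgeR 4.0.16 (R 4.3.3) with filterByExpr, TMM and robust quasi-likelihood fits tested all 14249 genes, with a clone block and a day 4 term per hairpin (3 residual and a median of 6.11 prior degrees of freedom). Levels within a day used 6 groups with 6 residual degrees of freedom, overstated because each clone enters at both days. With the clone block, p-values describe how the change from day 0 to day 4 varies between clones of a hairpin. Within a day they describe the spread of levels between these clones. CPM uses TMM-scaled totals. SEs follow from the test statistic. The procedure was tested on simulated data. DESeq2 1.42.0 and 41 alternatives in all were run.

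The genes and lists were chosen with earlier results of these data known. Named genes are the 12 largest called rises and falls in net change, up to 4 of largest called change in each other comparison, the 5 highest per kilobase, the highest of each cluster, those at the count limit, Zfp36, Ogdh, and up to 4 of smallest p in each list. Clones are paired across days by the labels. Replicate numbers at day 0 deviate together: over 15 pairs of clones the correlation of replicate 2 minus replicate 1 was 0.48 to 0.59 across genes, against -0.01 to 0.15 at day 4. Promoters are RefSeq's (GRCm38.p6), and 76 genes matched. Proteins were read as open reading frames of GENCODE M21 transcripts, whose gene coordinates equal the deposited ones for all 83 genes. 1 B cell marker is not reported here.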

Additional observations from a re-analysis of the deposited data

Results flagged for a closer look

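In 198 groups of 4 libraries (33 named genes in 6 groups each), 7 held a library set apart from the other 3 by Dixon's test at the 95% level. Chance flags about 1 in 20 such groups, or 9.9 of 198. With shOgdh2081, Zfp74 at day 4 had 5.05 CPM in the replicate 1 library of clone 5, against 7.64 to 8.07 CPM in the other 3. At day 0, Zfp568 had 103 CPM in the replicate 1 library of clone 5, against 81.3 to 82.9 CPM, and Zfp819 had 1.71 CPM in the replicate 2 library of clone 3, against 0.661 to 0.807 CPM. With shOgdh346 at day 0, Zfp418 had 2.36 CPM in the replicate 2 library of clone 5, against 1.26 to 1.35 CPM. With the control at day 4, Zfp94 had 7.36 CPM in the replicate 2 library of clone 2, against 5.41 to 5.68 CPM. Zfp82 had 0.318 CPM in the replicate 1 library of clone 7, against 0.736 to 0.807 CPM, and Zfp646 had 104 CPM in the replicate 2 library of clone 7, against 100 to 101 CPM.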

How the results depend on the processing

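Counts of called genes moved by more than 1.5 times in some fits, and the cause was not tested. Shares over all genes are not given for most of these fits, so the moves are no result about these genes. In the mean net change, 20 calls became 32 with 24 libraries and a replicate block, 8 in DESeq2 and 5 with no clone block. For shOgdh346, 16 became 28 with the block, 9 in DESeq2 and 6 with no clone block. For shOgdh2081, 11 became 26 with the block, 3 in DESeq2, 6 with the replicate 1 libraries alone at day 0 and 2 with no clone block. From day 0 to day 4 with shOgdh346, 46 became 30 in DESeq2 and 28 with no clone block. Over all 14249 genes DESeq2 called 3556 risen and 3346 fallen with that hairpin. With the control, 21 became 51 with the block, 38 with 24 libraries and no block, 4 with the replicate 2 libraries alone at day 0, 5 with no clone block and 35 with no filter on low counts. Between the Ogdh hairpins, 0 became 9 with the block, 3 with 24 libraries and no block and 3 with no filter. At day 4, 18 became 35 with the block and 30 with 24 libraries and no block. The fits of 24 libraries count 2 libraries of a clone as independent.

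Leaving out 1 library or 1 clone gave 13 to 20 and 3 to 23 calls in the mean net change, 13 to 17 and 6 to 18 for shOgdh346, and 8 to 12 and 1 to 12 for shOgdh2081. From day 0 to day 4 it gave 31 to 46 and 21 to 45 with shOgdh346, 38 to 44 and 27 to 45 with shOgdh2081, and 8 to 24 and 0 to 24 with the control. At day 4 it gave 14 to 18 and 5 to 20. A group left with 1 clone is assumed to vary like the others. Of 2330 values of named genes under the alternatives, 2111 stayed on their side of the threshold, 207 lost and 12 gained a call, and 0 called values changed sign. RLE and upper-quartile scaling moved the median net change of all genes to 0.03 and 0.04, and members rose and fell in 6 and 12 and in 6 and 11 genes. Over all genes tested 2693 rose and 2619 fell with RLE scaling, and 2757 rose and 2524 fell with upper-quartile scaling.

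With 2 clones per hairpin, genes under about 1 CPM, such as Zfp14, Zfp82, Zfp383 and Zfp583, rest on few counts.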
